A study of Macaca fascicularis with 2 samples.

Results

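The genes described here are AREG and the other ligands and receptors of the EGF receptor (EGFR) family in single cells of monkey nucleus pulposus (NP) and articular cartilage (AC). Of 8 named genes, AREG, EREG, HBEGF, BTC, EGFR, ERBB2 and ERBB3 were found by name among the 21371 genes counted, which gave 7 members, and TGFA was not analysed here. The genes were named after earlier results of these data were known, AREG for its level in notochordal cells (NCs), so levels in NCs and other cells are given as a description and no test was made. The animals were wild type male cynomolgus monkeys (Macaca fascicularis) aged 3 years, with no treatment. One RNA library pooled their cells, and each cell carried 1 of 4 antibody tags (A951 to A954). The labels name the tissue samples as AC3, NP3 and AC4 and do not pair them with tags, so no tag is called NP or AC here. There are more tags than samples, so tags can share a sample, and agreement between tags is not agreement between samples. The paper lists NP3 as the only NP sample of its new data, from the same animal as AC3, with AC4 from another animal. With 1 library, cells are not replicates. Intervals on levels treat reads as independent, though copies made by PCR are counted, so they are too narrow. Intervals on shares treat cells as independent. Neither kind covers differences between samples or animals.

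After limits on genes and mitochondrial reads, 5653 of 5674 tagged cells remained, with 1341305522 reads. NCs were the 310 cells (5.48%) with at least 5 reads of both KRT19 and TBXT, and the other 5343 cells were called other cells. Of the other cells, 85 had at least 5 reads of 1 of these marker genes and 5258 of neither. NCs came mostly from A952 (236 of 1125 cells) and A951 (67 of 995 cells), against 5 of 1377 cells in A953 and 2 of 2156 cells in A954. The median depth was 186370 reads in NCs and 199072 reads in other cells. Levels are reads summed over the cells of a group per 1000000 reads of that group (rpm), and ratios are log2 of the level in NCs over that in other cells.

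NC genes that the rule did not use also differed between the groups. The paper lists C3orf49, SRGN and APOE as markers of its notochordal cluster, from data that include this library. They are therefore no independent support for the grouping. C3orf49 stood at 2274 rpm in NCs and 13.3 rpm in other cells, SRGN at 739 and 8.83 rpm, and APOE at 10894 and 142 rpm. Not every notochord gene was higher in NCs, as FOXA2 was at 0.908 rpm in NCs and 5.46 rpm in other cells. NOTO had 1 read in all NCs. Chondrocyte genes were read in both groups. Of 7 such genes, 5 were higher in other cells, with COL2A1, the main collagen of cartilage, at 20072 rpm in other cells and 1269 rpm in NCs. ACAN, the core protein of aggrecan, and SOX9, a chondrocyte transcription factor, were higher in NCs, at 14440 against 3968 rpm and 1120 against 346 rpm.

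NCs descend from the embryonic notochord and lie in the NP beside chondrocyte-like cells. Ligands of the EGF family are made as membrane proteins and released by shedding proteases. They bind EGFR, ERBB3 or ERBB4, depending on the ligand, on the same or neighbouring cells, and the receptors pair with each other or with ERBB2 and ERBB3 to signal through RAS, ERK and PI3K. AREG (amphiregulin) and EREG (epiregulin) are early response genes in many tissues, EREG, HBEGF and BTC (betacellulin) bind both EGFR and ERBB4, and ERBB2 has no known ligand of its own. In the RefSeq annotation of the assembly T2T-MFA8v1.1, BTC, AREG, EREG and EPGN follow one another on chromosome 5 with 0 protein-coding genes between neighbours, while HBEGF lies on chromosome 6.

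The ligands split by cell group. AREG, EREG and BTC were higher in NCs, HBEGF was lower, and the receptors differed less than AREG, EREG and BTC did. Of the 7 members, 4 (AREG, EREG, BTC and ERBB2) were at least 2-fold higher in NCs, where 24.7% of the 13331 genes tested were. HBEGF alone was at least 2-fold lower, where 14.0% of these genes were, and EGFR and ERBB3 lay within 2-fold. The median log2 ratio was 1.59 over the members and 0.26 over all genes tested. As the members were named with this contrast known, these counts describe the choice and support nothing further.

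**Figure D1:**
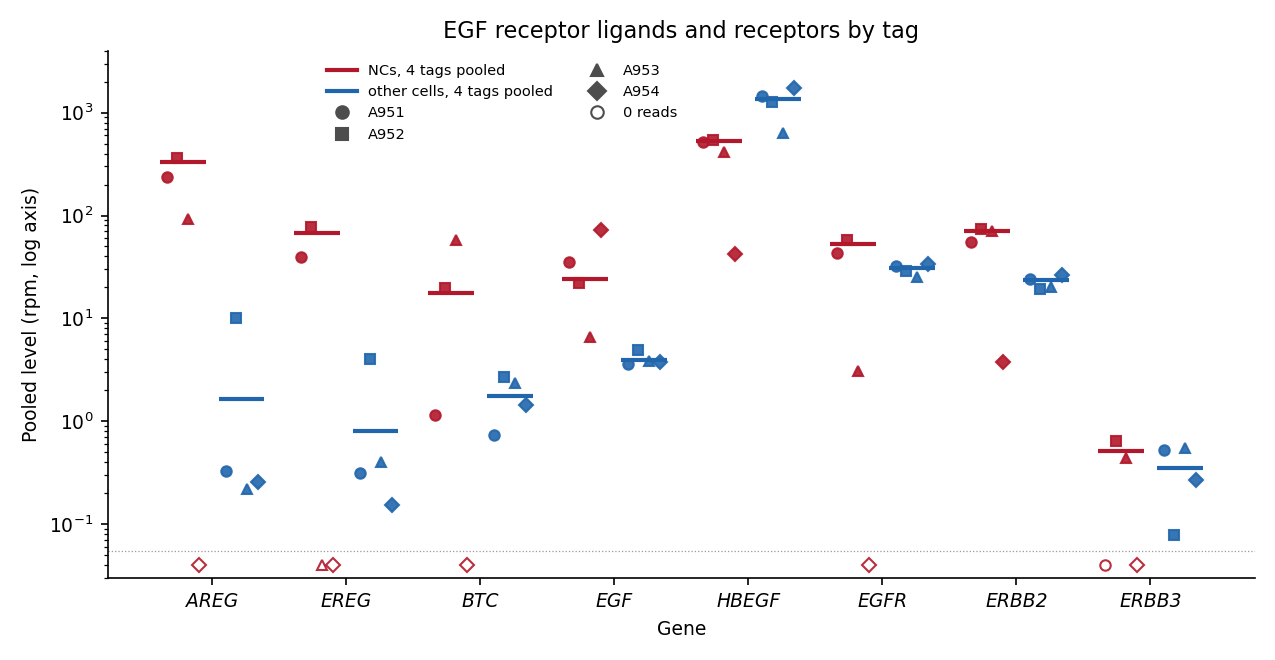
Pooled level of each gene in rpm (log axis) in NCs (red) and other cells (blue). Bars show the 4 tags pooled and symbols each tag, with open symbols under the dotted line for groups with 0 reads. AREG in NCs of A951, A952 and A953 (93.5 to 362 rpm) sits above every tag's other cells, HBEGF is higher in other cells than in NCs of each tag, and NCs of A953 and A954 are only 5 and 2 cells.

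AREG was the member that differed most between the groups. It stood at 328 rpm in NCs (95% interval 324 to 332 rpm, 21677 reads) and at 1.64 rpm in other cells (2086 reads), a 201-fold difference (log2 ratio 7.65) that ranked 7 from the top of the 13331 genes. By tag, AREG in NCs was 237 rpm in A951, 362 rpm in A952 and 93.5 rpm in A953. The 2 NCs of A954 had 0 AREG reads, where 3 reads would have been 11.4 rpm. In other cells, AREG was 0.331 rpm in A951, 9.99 rpm in A952, 0.217 rpm in A953 and 0.255 rpm in A954. The NC levels of A951, A952 and A953 lay above the other cells of every tag, and A952 stood out among the other cells. The share of all genes with this pattern was not measured. The 5 NCs of A953 had a median of 494207 reads, against 197492 in other cells of that tag, and whether they were doublets was not tested.

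Most AREG reads of other cells in A952 came from cells with 1 of the marker genes. Of these 1804 reads, 96.8% were in 46 cells with 1 of the marker genes, and the 843 cells with neither had 58 reads (0.335 rpm). Over all tags, cells with neither marker gene stood at 0.269 rpm, 1220-fold below NCs, and cells with 1 marker gene at 97.4 rpm. Among cells with neither gene, 5.13% had an AREG read but only 1 of 5258 had 5 or more. Their level was 0.0819% of that in NCs, and the corresponding value was 0.112% for C3orf49, 0.295% for NRN1, 0.377% for SHH, 0.517% for EREG and 0.798% for SRGN, but 8.53% for BTC and 15.4% for EGF. The source of the single AREG reads in these cells was not tested, and they are not counted as expression here.

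Most NCs gave no AREG read. At least 1 read was found in 32.3% of NCs and at least 5 reads in 78 of 310 (25.2%, exact 95% interval 20.4 to 30.4%), against 14 of 5343 other cells (0.262%). After every cell was thinned to 50000 reads, the shares with at least 1 read were 28.4% of NCs and 1.48% of other cells, and a second random draw gave 28.8% of NCs. The share at 5 or more reads was 10.4% of NCs in A951 (4.30 to 20.3%) and 28.8% in A952 (23.1 to 35.0%). These intervals are over cells of 1 library and do not test a difference between tags. NCs of A951 were also less deeply read, with a median of 154155 reads against 191336 in A952. In A953, 3 of 5 NCs reached 5 reads. In the cells that reached it, AREG ran from 31.2 through a median of 431 to 6378 rpm. The pooled level therefore rested on few cells, as 7 NCs held 50% of the AREG reads of all NCs and 1 cell held 60.5% of those in A951.

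At the threshold that defines NCs, AREG was found on both sides. The 40 NCs whose lower marker gene had 5 to 19 reads were at 1185 rpm of AREG, with 34.3% of the reads in 1 cell, and 10 of them (25.0%) had 5 or more reads. The 17 cells just outside, with 1 to 4 reads of the lower gene, were at 78.3 rpm, and 4 of them (23.5%) had 5 or more AREG reads. AREG also went beyond this edge, as the 68 cells with 0 reads of the lower gene and 5 or more of the higher were at 104 rpm, with 5 or more AREG reads in 9 of them (13.2%). With NCs defined by at least 20 reads of both marker genes, the log2 ratio of AREG was 5.02 in place of 7.65.

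EREG, the neighbour of AREG on the chromosome, had the same direction. It was 67.1 rpm in NCs and 0.798 rpm in other cells (log2 ratio 6.40, rank 46). NCs of A951 were at 39.9 rpm and those of A952 at 76.9 rpm, while the NCs of A953 and A954 had 0 reads. In other cells, EREG was 0.311 rpm in A951, 4.07 rpm in A952, 0.404 rpm in A953 and 0.153 rpm in A954. The NC levels of A951 and A952 lay above all 4 of these. At least 5 EREG reads were present in 59 NCs (19.03%, 14.8 to 23.9%), in 5 of 85 cells with 1 marker gene (5.88%) and in 5 of 5258 cells with neither (0.0951%).

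BTC and EGF were also higher in NCs, but in fewer cells. BTC stood at 17.7 rpm in NCs and 1.75 rpm in other cells (log2 ratio 3.33), and 24 NCs (7.74%) had 5 or more reads against 46 other cells (0.861%). This difference was carried by A952 (19.9 rpm in NCs, 2.72 rpm in other cells) and by 2 cells of A953. In A951 the 67 NCs had 14 BTC reads (1.15 rpm), none of them reached 5 reads, and other cells were at 0.732 rpm. EGF, which is not a member but the founding ligand of the family, was 24.3 rpm in NCs and 3.90 rpm in other cells, with 12.9% and 1.27% of cells at 5 or more reads. EGF reads were spread thinly over other cells, as 53.9% of them had at least 1 read and 774 cells held 50% of the reads. The NC level of EGF was above that of other cells in each tag, at 35.2 against 3.56 rpm in A951, 22.2 against 4.92 rpm in A952, 6.61 against 3.81 rpm in A953 and 72.3 against 3.76 rpm in A954, the last from 1 cell.

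**Figure D2:**
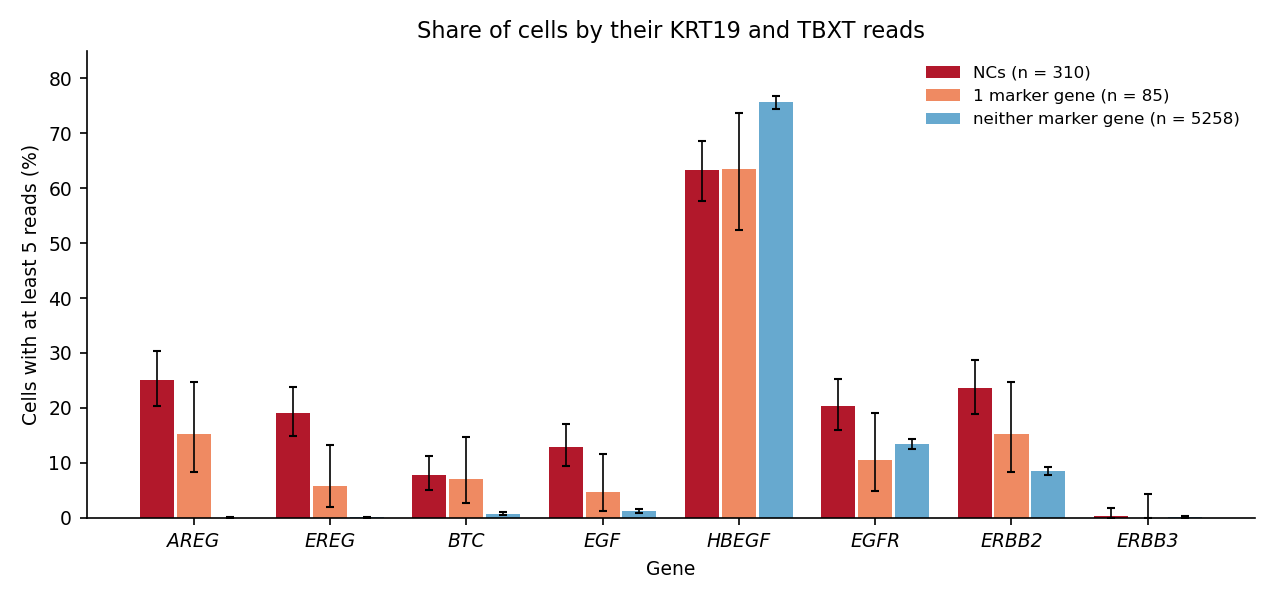
Percentage of cells with at least 5 reads of each gene, in NCs (310 cells), cells with 1 of KRT19 and TBXT (85 cells) and cells with neither (5258 cells). Error bars are exact 95% binomial intervals. AREG reached 25.2% of NCs and EREG 19.03%, with nearly none in cells with neither marker gene, while HBEGF was found in more of the cells with neither marker gene (75.6%) than of the NCs (63.2%).

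HBEGF had the opposite pattern. It was 532 rpm in NCs and 1348 rpm in other cells (log2 ratio -1.34), and 63.2% of NCs (57.6 to 68.6%) and 75.4% of other cells (74.2 to 76.6%) had 5 or more reads. In other cells, HBEGF was 1456 rpm in A951, 1276 rpm in A952, 632 rpm in A953 and 1753 rpm in A954. In NCs it was 518 rpm in A951, 543 rpm in A952, 418 rpm in the 5 cells of A953 and 41.8 rpm in the 2 cells of A954. The pooled level of NCs was lower in each tag, but the levels of other cells differed more between tags than NCs of A951 differed from NCs of A952. Without A954, which holds the highest other cells and 2 NCs, the ratio was -0.94, no longer 2-fold. With NCs defined by at least 1 read of both marker genes it was -0.69.

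Across cells, HBEGF was neither silent nor uniform. The median other cell was at 413 rpm, with quartiles at 24.8 and 1664 rpm, and the median NC was at 66.8 rpm, with quartiles at 17.6 and 604 rpm. The groups overlapped over most of their range, and in A953 the median of the 5 NCs (237 rpm) was above that of other cells (117 rpm). The 10 cells with most HBEGF reads held 26.5% of the reads of NCs and 3.87% of those of other cells. In the 885 other cells with at least 5 reads of both ASPN and CILP, genes of fibrocartilage and of the cartilage surface, HBEGF was 1104 rpm, against 1431 rpm in the 4384 remaining cells with neither NC marker gene. This did not hold in each tag, as the levels were 1096 and 1507 rpm in A951, 1630 and 1258 rpm in A952, 616 and 640 rpm in A953 and 1334 and 1935 rpm in A954.

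**Figure D3:**
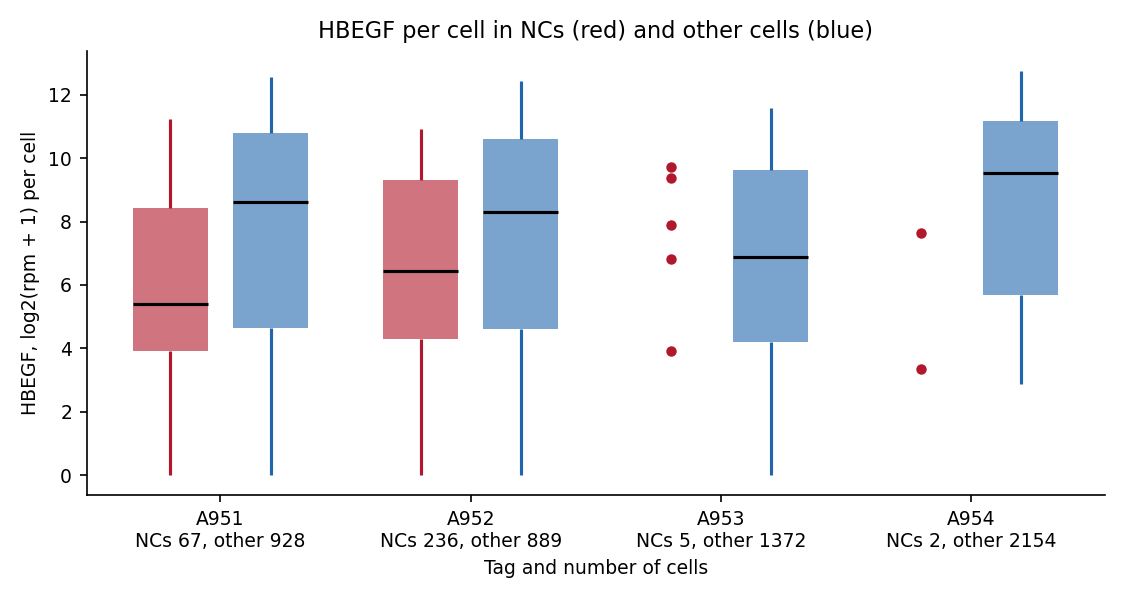
HBEGF per cell as log2(rpm + 1) in NCs (red) and other cells (blue) of each tag. Boxes span the quartiles with the median as a line, whiskers reach the 5th and 95th percentiles, and single points are the NCs of A953 and A954. Medians of NCs (40.7 rpm in A951, 86.1 rpm in A952) lie below those of other cells (395 and 314 rpm), the median of the 5 NCs of A953 lies above, and the boxes overlap.

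Counting ligands per cell showed the same split. Of AREG, EREG, BTC and EGF, at least 1 reached 5 reads in 47.4% of NCs (41.7 to 53.1%) and in 2.38% of other cells (1.99 to 2.82%). With HBEGF added, the shares were 72.9% and 75.7%, because most other cells had HBEGF alone. At least 2 of the 5 ligands reached 5 reads in 39.0% of NCs and 2.13% of other cells.

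Receptors were found in both groups. EGFR, the receptor of AREG and a receptor of EREG, was 53.2 rpm in NCs and 30.6 rpm in other cells (log2 ratio 0.80), within 2-fold. In other cells it was close between tags, at 32.4 rpm in A951, 29.0 rpm in A952, 25.5 rpm in A953 and 33.5 rpm in A954. In NCs it was 43.2 rpm in A951, 58.1 rpm in A952 and 3.09 rpm in A953, and the 2 NCs of A954 had 0 reads. The NCs of A951 and A952 lay above the other cells of every tag and the few NCs of A953 and A954 below them. EGFR reached 5 reads in 20.3% of NCs (16.0 to 25.2%) and in 13.3% of other cells (12.4 to 14.2%), and 34.1% of other cells had at least 1 read.

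ERBB2, the partner receptor without a ligand, was 70.5 rpm in NCs and 23.5 rpm in other cells (log2 ratio 1.59). By tag, NCs were at 55.5 rpm in A951, 74.4 rpm in A952, 70.5 rpm in A953 and 3.80 rpm (1 read) in A954. Other cells were at 24.2, 19.2, 20.2 and 26.5 rpm in the same order. NCs of A951, A952 and A953 lay above the other cells of every tag and those of A954 below, though 82.5% of the A953 reads came from 1 cell. The share of all genes with this pattern was not measured. By its pooled ratio ERBB2 ranked 1872 from the top of the 13331 genes. ERBB2 reached 5 reads in 23.5% of NCs (18.9 to 28.7%) and 8.59% of other cells (7.85 to 9.37%).

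ERBB3, a receptor with an impaired kinase, was barely read. It had 34 reads in NCs (0.515 rpm) and 451 in other cells (0.354 rpm), and 1 NC and 7 other cells reached 5 reads. One cell held 61.8% of the NC reads. In A952 it had 33 reads in NCs (0.643 rpm) and 14 in other cells (0.0775 rpm), while in A951 it had 0 reads in NCs and 104 in other cells. ERBB4, from the pathway list, was 5.46 rpm in NCs and 4.89 rpm in other cells. At least 1 of the 4 receptors reached 5 reads in 38.1% of NCs (32.6 to 43.7%) and 22.2% of other cells (21.1 to 23.3%).

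Within NCs, EREG and HBEGF were more frequent in cells with AREG at 5 or more reads. EREG reached 5 reads in 27 of 78 NCs with AREG (34.6%, 24.2 to 46.2%) and in 32 of 232 NCs without (13.8%, 9.63 to 18.9%). HBEGF did so in 85.9% (76.2 to 92.7%) and 55.6% (48.96 to 62.1%). EGF was not more frequent with AREG, at 8.97% (3.68 to 17.6%) and 14.2% (9.998 to 19.4%), and BTC was at 15.4% (8.21 to 25.3%) and 5.17% (2.70 to 8.86%). EGFR did so in 19.2% and 20.7%, with intervals of 11.2 to 29.7% and 15.7 to 26.5%, and ERBB2 in 23.1% and 23.7%. NCs with AREG were more deeply read, with a median of 260648 reads against 167480. After thinning to 50000 reads, EREG reached 5 reads in 25.0% of NCs with AREG (15.3 to 37.0%) and 11.3% of those without (7.49 to 16.1%), and HBEGF in 75.0% (63.0 to 84.7%) and 40.3% (33.9 to 46.9%). All 27 NCs with both AREG and EREG were from A952, where 68 NCs had AREG. In A951, 0 of 7 NCs with AREG and 6 of 60 without had EREG.

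SHH, the hedgehog ligand of NCs, overlapped AREG in part. SHH reached 5 reads in 29 of 78 NCs with AREG (37.2%, 26.5 to 48.9%) and in 43 of 232 without (18.5%, 13.8 to 24.1%), with 28 of 68 and 34 of 168 in A952 and 0 of 7 and 9 of 60 in A951.

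**Figure D4:**
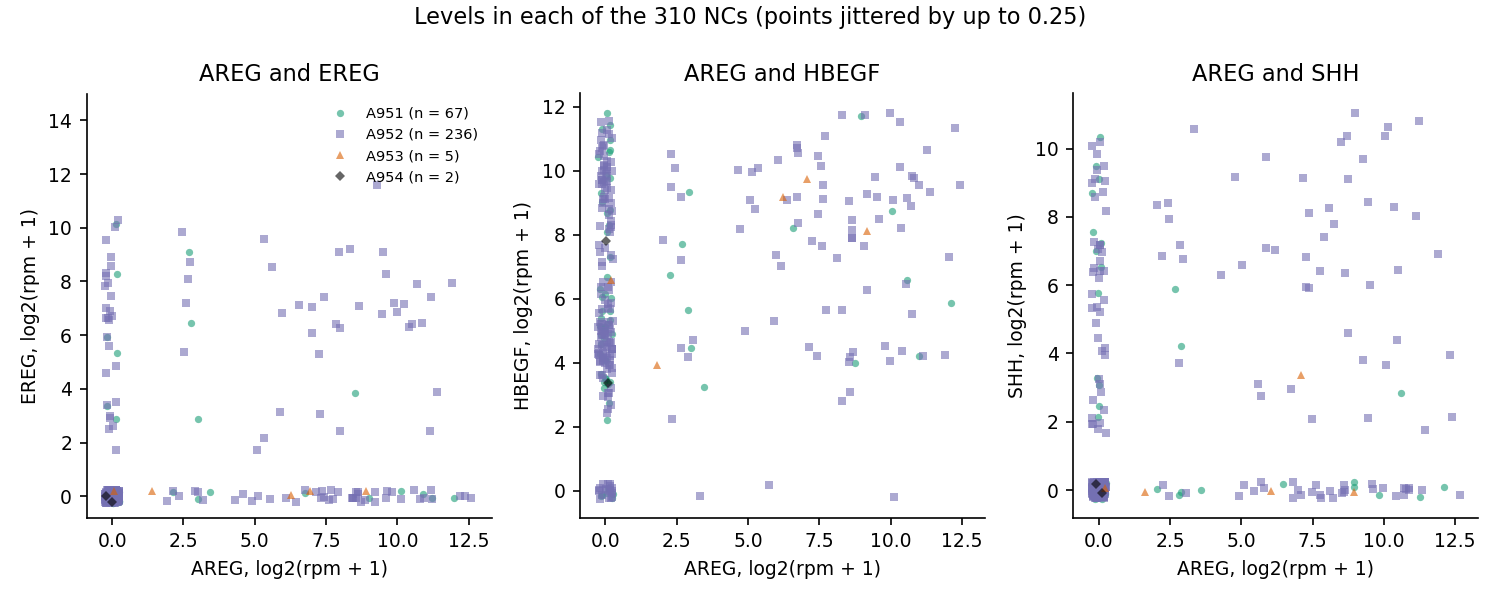
Level of EREG, HBEGF and SHH against AREG in each NC, as log2(rpm + 1), with each point jittered by up to 0.25 and shown by tag. Many NCs lie at 0 on 1 or both axes, and the cells with both AREG and EREG at 5 or more reads are all from A952.

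The genes whose levels followed AREG most closely across the 310 NCs, among 7383 genes read in at least 20% of them, were NFATC1 (Pearson r 0.40), ACTG1 (0.39), F3 (0.39), MAFF (0.38) and THOC6 (0.38). NFATC1 is a transcription factor activated by calcineurin, ACTG1 a cytoplasmic actin, F3 tissue factor, MAFF a small MAF transcription factor and THOC6 a subunit of an mRNA export complex. These points share a library, and r between AREG and total reads was 0.26, so the values are weak and only descriptive. F3 was at 911 rpm in NCs with AREG, 265 rpm in those without and 14.5 rpm in other cells, but its r was 0.41 in A952 and 0.12 in A951. ACTG1 was at 10404 rpm and 6445 rpm in NCs with and without AREG, and r was 0.40 in A952 and 0.26 in A951. For EREG, HBEGF and SHH, r with AREG was 0.24, 0.25 and 0.24 over all NCs, 0.27, 0.26 and 0.28 in A952, and 0.02, 0.10 and -0.11 in A951.

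Across the 5343 other cells, HBEGF was most like CLCF1 (r 0.35), THOC6 (0.30), LIF (0.30), MAFF (0.29) and SLC7A5 (0.28), among 6934 genes. CLCF1 and LIF are cytokines of the IL-6 family and SLC7A5 transports amino acids. With total reads, r was 0.25, and with EGFR it was 0.04.

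The rest of the pathway was followed in 61 further genes, of which 55 could be tested. In NCs, 11 (20.0%) were at least 2-fold higher and 10 (18.2%) at least 2-fold lower, near the shares of 24.7% and 14.0% over all genes, and the median log2 ratio was 0.22. Of these, 7 of the higher and 7 of the lower genes were also past 2-fold in both A951 and A952. The share of all genes past 2-fold in both tags was not measured, so these counts describe the list only. Of the 4 shedding genes none passed 2-fold over all tags. ADAM10, a sheddase of several ligands of the family, had a log2 ratio of 0.93 pooled, with 1.33 in A951 and 1.09 in A952. RHBDF2, a partner of ADAM17, was at 0.53 pooled, with 1.22 in A951 and 0.37 in A952. ADAM17, the main sheddase of AREG, stood at 52.9 rpm in NCs and 50.5 rpm in other cells. Of the 5 further ligands, EGF alone was higher.

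Of 15 feedback inhibitors, 4 (26.7%) were higher and 5 (33.3%) lower in NCs, where 24.7% and 14.0% of all genes were. DUSP4, a phosphatase that inactivates ERK in the nucleus, was 17.4 rpm in NCs and 0.152 rpm in other cells (log2 ratio 6.84), with 5.58 in A951 and 5.24 in A952. It rested on few cells, as 6.45% of NCs and 0.0749% of other cells had 5 or more DUSP4 reads. LRIG3 (2.17) and CBLB (1.36), a ubiquitin ligase, were also higher, though CBLB was at 0.35 in A952. ERRFI1, which binds and inhibits the EGFR kinase, was 297 rpm in NCs and 3359 rpm in other cells (-3.50), and 86.5% of NCs and 97.2% of other cells had 5 or more reads. SPRY1 (-2.85) and SPRED1 (-2.79), inhibitors of RAS and RAF signaling, were lower too. ERRFI1, SPRY1 and SPRED1 were lower by more than 2-fold in A951 and in A952.

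Among 19 adaptors and kinases, PIK3R1 (log2 ratio 1.67), a regulatory subunit of PI3K, GAB1 (1.58), a docking protein, and PIK3CB (1.21, but 0.42 in A951), a catalytic subunit of PI3K, were higher, and 15 lay within 2-fold. The higher genes were 15.8% of this list and the lower 5.26%, against 24.7% and 14.0% of all genes. Of 11 targets, 3 (27.3%) were higher and 4 (36.4%) lower in NCs, where 24.7% and 14.0% of all genes were. The early response genes FOS (2.02) and EGR1 (1.28, but 0.53 in A952) and the prostaglandin synthase PTGS2 (1.12) were higher. FOS stood at 2237 rpm in NCs and 551 rpm in other cells. ETV4 (-4.20), a transcription factor of the ETS family, and IER3 (-1.88, but -0.69 in A951) were lower, as was CCND1. MMP13, a collagenase, had 1 read in NCs and 291 in other cells, a ratio of 0.0663 with a counting interval of 0.00167 to 0.372. With its NC reads set to 3, as for the other ratios and in the count above, its log2 ratio was -2.33.

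**Figure D5:**
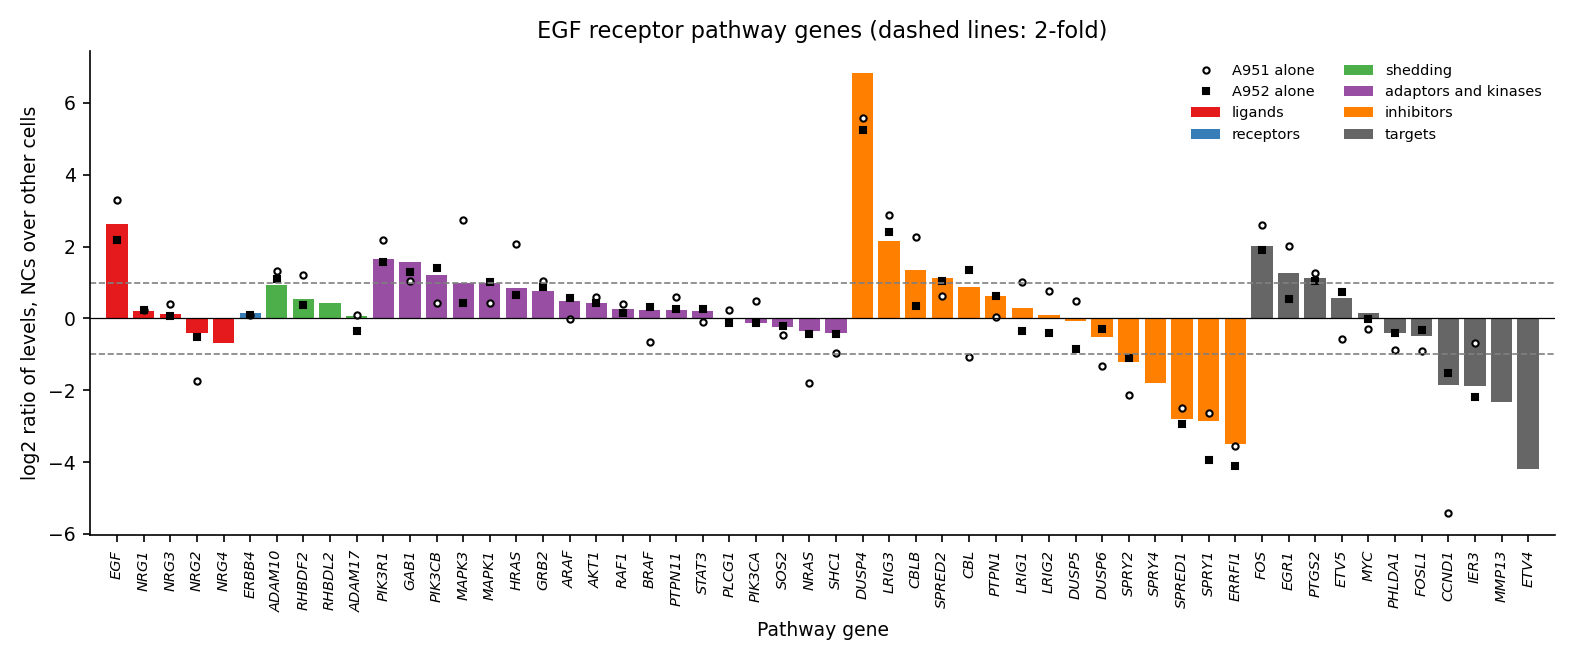
log2 ratio of the level in NCs over other cells for pathway genes tested, grouped by role, with dashed lines at 2-fold. Circles and squares give A951 and A952 alone for genes with at least 100 reads in NCs, with groups under 3 reads set to 3. DUSP4 is highest (6.84) and ETV4 lowest (-4.20), and most adaptors and kinases lie between the dashed lines.

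Genes that digestion of tissue can raise moved with the groups. Of 11 on this list 6 could be read (FOS, FOSB, JUN, EGR1, NR4A1 and DNAJB1), and all 6 were higher in NCs. Over all genes tested the median log2 ratio was 0.26, with 24.7% at least 2-fold higher in NCs and 14.0% lower. Their summed level was 7498 rpm in NCs and 1669 rpm in other cells, with JUN the most read in NCs (3104 rpm), and FOS and EGR1 are also among the targets above. By tag the sum in NCs was 9571 rpm in A951, 7286 rpm in A952, 2021 rpm in A953 and 110 rpm in A954, against 1522, 1833, 1331 and 1868 rpm in other cells, so the 2 NCs of A954 went the other way. Within NCs it was 4462 rpm in cells with AREG and 8966 rpm in those without, with FOS at 866 and 2899 rpm and JUN at 1923 and 3675 rpm. By shares of cells at 5 or more reads the order was not the same. NR4A1 reached 64.1% of NCs with AREG and 36.6% of those without, EGR1 46.2% and 32.3%, JUN 92.3% and 80.6% and DNAJB1 76.9% and 63.8%, and FOS and FOSB differed by less. NCs with AREG were also the more deeply read. Its part in the difference in AREG between NCs and other cells was not tested.

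Markers of blood and immune cells, which can also make AREG, were read at low levels in both groups. The 7 markers summed to 28.4 rpm in NCs and 23.5 rpm in other cells, CD68 was the most read (9.64 and 17.4 rpm, with 6.13% and 8.76% of cells at 5 or more reads), PTPRC was at 1.30 and 0.700 rpm, and MS4A2 had 0 reads in NCs. CD14 (7.46 against 3.15 rpm), LYZ (5.21 against 0.714 rpm) and CD3E (4.39 against 1.05 rpm, with 3.23% against 0.580% of cells at 5 or more reads) were higher in NCs. In NCs with AREG the sum was 23.4 rpm and in those without 30.8 rpm, but CD68 was higher in those with AREG (15.1 against 6.98 rpm). The part of these cells was not tested. The 3 mural markers summed to 80.1 rpm in NCs and 11.7 rpm in other cells, mostly from ACTA2, a smooth muscle actin, at 70.7 and 6.54 rpm. In NCs with and without AREG, ACTA2 was 121 and 46.5 rpm, RGS5 was 4.09 and 10.6 rpm and MYH11 was 0.882 and 0.988 rpm. MYH11 was lower in NCs (0.954 rpm) than in other cells (2.17 rpm), and the part of mural cells was not tested.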

How the data were processed

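The authors deposited counts of reads per gene and cell from TAS-seq, a method without molecular identifiers, so copies made by PCR are counted. Reads were mapped with HISAT2 (version 2.2.1) and counted with featureCounts (version 2.0.2), as the submitters' processing notes name them. Per the paper's methods, whole genes were counted, introns included, and reads mapping to several places were kept, so related genes can share reads. The genome build was not given in the sources used here. Cells the authors marked as doublets (42 columns) and 7 without a tag were left out, and with 1358 columns of another matrix 1407 columns of values were not used. No further doublet caller was run, and 0 cell numbers were shared between tags.

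Cells with 200 to 9000 genes and under 5% mitochondrial reads were kept (20 left out for mitochondrial reads, 1 for genes). Group depth and tags are given with the results. Levels are pooled rpm with exact Poisson intervals, shares have exact Clopper-Pearson 95% intervals, and a group under 3 reads was set to 3 in a ratio (for MMP13 the ratio of the reads is also given). Genes with at least 100 reads in at least 50 cells entered the background. As there was 1 library, and labels without tissue for the tags, no test and no p-value was computed. Cells were thinned to 50000 reads without replacement, leaving out 11 NCs and 196 other cells below it. Python 3.11.15, numpy 2.4.6, scipy 1.17.1 and pandas 2.3.3 were used, and the scripts were tested on simulated data.

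The members and lists were chosen with earlier results of these data known. The text names all members, the up to 3 pathway genes of each role farthest past 2-fold in each direction, the 5 genes most correlated with AREG in NCs and with HBEGF in other cells, and SHH. CCND1, ERBB4, ADAM10, ADAM17, RHBDF2 and the marker genes named beyond this rule were chosen after their values were seen. All 8 named genes matched RefSeq symbols. Protein and promoter sequences were not used here. A pathway gene that the rule would name is counted but not reported here, nor drawn.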

Additional observations from a re-analysis of the deposited data

Results flagged for a closer look

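Among the 4 tags, the level of AREG in other cells of A952 (9.99 rpm) stood far from that of the other tags, which lay between 0.217 and 0.331 rpm. In the cells of A952 with neither marker gene it was 0.335 rpm. The level of EREG in other cells of A952 (4.07 rpm) also stood far from the other tags (0.153 to 0.404 rpm), and in cells with neither marker gene it was 1.06 rpm, where 1 cell held 47.0% of the reads. Chance can flag groups of this kind, at a rate not measured here, and 8 genes were looked at.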

How the results depend on the processing

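The ratios of AREG, EREG, BTC, ERBB2 and EGFR kept their direction under all 14 alternatives, HBEGF stayed lower in all 14, and ERBB3 kept its sign in 9. For AREG the log2 ratio ran from 2.28, as a difference of mean log2(rpm + 1), to 10.25 with cells of 1 marker gene left out, with 5.02 for NCs at 20 or more reads of both marker genes, and from 6.91 (without A954) to 9.68 (without A952) without each tag in turn. In the same way EREG ran from 5.69 (without A954) to 7.004 (without A952), and BTC fell to 2.63 and EGFR to 0.23 without A952. As a difference of mean log2(rpm + 1), EREG was at 1.45 and BTC at 0.58. Scaling by the median of ratios lowered every log2 ratio by 0.30, which gave EGFR 0.50 and HBEGF -1.64, with 18.2% of all genes higher and 18.7% lower. Of the members, 3 to 4 were at least 2-fold higher under every alternative, and the number lower was 0 with at least 1 read of both marker genes and 0 to 1 without each tag (0 without A954). The number of pathway genes higher (11) was 7 with at least 1 read of both marker genes, 5 on the mean log scale, 7 with median of ratios scaling, and 12 to 14 without each tag. The number lower (10) was 5, 4 and 9 to 11 under the first, second and last of these. The share of NCs with AREG (32.3%) was 25.2% at 5 or more reads and 23.0 to 35.8% without each tag, lowest without A952, and the share of other cells with EGFR (34.1%) was 13.3% at 5 or more reads, 19.1% after thinning and 33.0 to 34.6% without each tag. The causes were not tested. Depth limits the shares, as reads in a cell are few for most of these genes, and the NC levels of A953 and A954 rest on 5 and 2 cells.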
